A study of Arabidopsis thaliana with 2 samples.

Results

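Where neighbouring genes of Arabidopsis thaliana are transcribed away from each other, 1 stretch of DNA lies upstream of both and can serve as the promoter of either. The MNase hypersensitive sites (MHSs) in such shared divergent promoters were described from the MH-seq data of 2-week-old seedlings of ecotype Col-0. MH-seq sequences the DNA fragments of at most 100 bp set free from chromatin, fixed with 1% formaldehyde, by a small amount of micrococcal nuclease (MNase). The data were 2 libraries of such seedlings grown alike, with no mutant or treated group, so no test between conditions was possible. The label of the first library has no replicate number and it is called replicate 1 here, whereas the second is labelled as replicate 2. An MHS was taken as a member where its midpoint lay outside every annotated gene and between 2 neighbouring protein-coding genes on opposite strands, transcribed away from each other, with at most 1500 bp between their annotated starts (TSSs). Of the 70046 MHSs of replicate 1, 4270 (6.10%, 5.92 to 6.28) were members, and the rule applied to the 49934 MHSs of replicate 2 gave 3190 (6.39%, 6.18 to 6.61). All ranges after a share are exact (Clopper-Pearson) 95% binomial intervals, which cover counting error only, since neighbouring MHSs and gaps are not independent. The lists hold positions with no score, so the read depth behind a single MHS was not analysed.

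Open chromatin is DNA that nucleosomes leave free, and in plants it is concentrated at promoters, where transcription factors and RNA polymerase II bind. A divergent gene pair has its core promoters at the ends of the gap, pointing outwards, and the regulatory DNA between them can act on either gene or on both. Site II elements, with the letters TGGGCC or TGGGCT, are bound by TCP transcription factors and are known from promoters of ribosomal protein genes and other genes of growing cells. The telo-box (AAACCCTA) is often found near them. The G-box (CACGTG) is bound by bZIP and bHLH factors, the TATA box (TATAAA) by the TATA-binding protein, and the evening element (AAATATCT) by the clock proteins CCA1 and LHY.

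Sequences of 3 sets are shown here as examples for the results on position, replicate overlap and motifs, which rest on all members and gaps. All are the upper strand of TAIR10.1, 5′ to 3′, and capitals mark matches on either strand to the site II, telo-box, TATA box, G-box and evening element letters, with overlapping matches counted separately. The first set holds whole gaps beside a gene for a ribosomal protein that 1 member spanned from TSS to TSS in each replicate. Of the 121 divergent gaps with such a gene, 40 of at most 300 bp were spanned in this way, and 26 of the 40 held a site II element, 7 a telo-box and 16 a TATA box. The 5 with the longest stretch shared by the replicates, a choice made after their values were seen, are the 267 bp between AT5G02960, for a ribosomal protein of the S12/S23 family, and AT5G02970 (chr5:694516-694782), the 189 bp between AT1G16870 and ACR11 (chr1:5773323-5773511), the 284 bp between G3Pp4 and AT4G17560, for a ribosomal protein of the L19 family (chr4:9779940-9780223), the 156 bp between AT2G40010, for a ribosomal protein of the L10 family, and AT2G40020 (chr2:16710773-16710928), and the 119 bp between AT1G70600, for a ribosomal protein of the L18e/L15 superfamily, and ABCB26 (chr1:26621780-26621898). The number of site II matches in these gaps was 4, 1, 5, 2 and 0 in that order. Beside the 26 of 40, the share with site II was taken over all divergent gaps spanned in both replicates. It was 40.8% of 71 gaps at 1 to 100 bp and 55.5% of 272 at 101 to 200 bp. At 201 to 300 bp it was 68.5% of 89. For the telo-box the shares were 8.45%, 3.31% and 5.62%, and for the TATA box none was taken.
AT5G02960/AT5G02970: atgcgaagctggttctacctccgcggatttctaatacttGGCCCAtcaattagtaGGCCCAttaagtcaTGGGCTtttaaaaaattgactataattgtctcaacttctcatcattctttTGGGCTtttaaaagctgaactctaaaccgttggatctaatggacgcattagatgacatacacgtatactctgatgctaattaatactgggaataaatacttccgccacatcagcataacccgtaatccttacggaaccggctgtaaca
AT1G16870/ACR11: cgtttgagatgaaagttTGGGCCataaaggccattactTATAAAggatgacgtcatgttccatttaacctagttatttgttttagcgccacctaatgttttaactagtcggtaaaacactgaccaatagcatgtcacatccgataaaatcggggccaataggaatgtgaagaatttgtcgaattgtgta
G3Pp4/AT4G17560: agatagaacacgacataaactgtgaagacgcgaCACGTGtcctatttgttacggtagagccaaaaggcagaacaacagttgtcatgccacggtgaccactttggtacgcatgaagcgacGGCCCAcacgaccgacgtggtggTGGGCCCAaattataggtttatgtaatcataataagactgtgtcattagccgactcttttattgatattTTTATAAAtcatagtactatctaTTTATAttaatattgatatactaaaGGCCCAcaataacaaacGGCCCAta
AT2G40010/AT2G40020: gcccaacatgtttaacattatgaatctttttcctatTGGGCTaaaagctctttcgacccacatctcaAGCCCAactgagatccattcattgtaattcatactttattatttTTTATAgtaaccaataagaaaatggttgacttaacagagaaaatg
AT1G70600/ABCB26: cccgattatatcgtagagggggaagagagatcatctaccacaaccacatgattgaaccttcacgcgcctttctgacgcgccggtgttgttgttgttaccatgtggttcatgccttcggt

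The second set holds the 300 bp next to the TSS of each clock gene in a divergent gap: PCL1, also called LUX, a subunit of the evening complex (chr3:17182742-17183041), PRR7, a pseudo-response regulator (chr5:642031-642330), and TOC1, likewise a pseudo-response regulator and a repressor of the morning genes (chr5:24674663-24674962). All 3 stretches lay wholly within an MHS in each replicate. The stretch at PCL1 held 2 evening elements and 1 G-box, that at TOC1 held 1 evening element, and that at PRR7 held 1 G-box and 1 TATA box.
AT3G46630/PCL1: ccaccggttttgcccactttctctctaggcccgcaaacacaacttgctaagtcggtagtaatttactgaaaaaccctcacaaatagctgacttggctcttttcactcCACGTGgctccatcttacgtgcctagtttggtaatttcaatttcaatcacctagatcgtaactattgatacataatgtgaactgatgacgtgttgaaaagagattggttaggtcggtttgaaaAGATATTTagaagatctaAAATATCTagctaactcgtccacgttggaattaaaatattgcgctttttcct
PRR7/RHL2: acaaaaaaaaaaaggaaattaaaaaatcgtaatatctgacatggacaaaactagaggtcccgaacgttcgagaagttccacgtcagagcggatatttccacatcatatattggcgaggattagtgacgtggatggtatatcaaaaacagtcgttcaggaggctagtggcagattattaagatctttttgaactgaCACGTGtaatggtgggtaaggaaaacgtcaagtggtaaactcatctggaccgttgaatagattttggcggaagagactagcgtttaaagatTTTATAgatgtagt
AT5G61370/TOC1: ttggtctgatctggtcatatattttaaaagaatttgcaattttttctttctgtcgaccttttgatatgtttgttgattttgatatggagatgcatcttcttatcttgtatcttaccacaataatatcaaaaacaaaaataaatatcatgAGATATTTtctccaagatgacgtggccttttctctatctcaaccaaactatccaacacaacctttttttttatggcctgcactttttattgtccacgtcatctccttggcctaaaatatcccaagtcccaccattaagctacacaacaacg

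The third set, for contrast, holds 2 short members of replicate 1 that overlapped no MHS of replicate 2, one of 73 bp between AT5G01250 and AT5G01260 (chr5:103855-103927) and one of 78 bp between AT5G66910 and sks17 (chr5:26722231-26722308). Neither held any of these motifs, and their A/T content was 79.5% and 73.1%, against 59.9% in the 267-bp gap between AT5G02960 and AT5G02970. Members of 96 bp beside PIP1A, 75 bp beside sks17 and 83 bp beside AT5G01250 overlapped replicate 2 and held none either. Their A/T content was 64.6%, 70.7% and 75.9%. A short stretch has less room for a motif, so these examples do not tie the lack of motifs to the missing overlap.
AT5G01250/AT5G01260: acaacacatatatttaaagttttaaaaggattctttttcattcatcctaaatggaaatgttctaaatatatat
AT5G66910/sks17: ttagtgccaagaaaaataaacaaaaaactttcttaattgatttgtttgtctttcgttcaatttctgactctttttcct

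Shared divergent promoters were mostly open, and more often so than gaps of the same length between genes in tandem or pointing at each other. The annotation placed 3232 divergent gaps of at most 1500 bp on chromosomes 1 to 5, with a median length of 545.5 bp. A member was present in 2573 of them in replicate 1 (79.6%, 78.2 to 81.0) and in 2282 in replicate 2 (70.6%, 69.0 to 72.2). Among gaps of the same maximum length, 60.01% of tandem and 28.4% of convergent gaps held an MHS midpoint in replicate 1, and 47.5% and 21.1% in replicate 2. A divergent gap has a TSS at both ends, a tandem gap at 1 end and a convergent gap at neither. The part of this in the order of the shares was not tested. Together the divergent gaps made up 1.66% of the chromosomes, and MHSs covered 45.8% of their bases in replicate 1 and 37.1% in replicate 2, against 11.7% and 9.26% of the chromosomes. Both replicates placed a member in 2193 gaps, and 570 gaps held none in either. Of the 380 gaps with a member in replicate 1 alone, 246 were nevertheless overlapped by an MHS of replicate 2 whose midpoint lay in a gene.

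The order of divergent, tandem and convergent gaps was the same in all classes of gap length and in both replicates, as the plot of gaps holding an MHS shows. In replicate 1, divergent gaps of 101 to 200 bp held a member in 82.5% of cases (78.6 to 85.9), against 53.0% of tandem and 16.6% of convergent gaps of that length. In replicate 2 the same class gave 78.8%, 43.8% and 10.8%. Between 201 and 400 bp the shares of divergent gaps were 78.9% and 79.7% in replicate 1 and 70.4% and 66.8% in replicate 2, and at 1001 to 1500 bp they were 90.4% and 81.5%. Gaps of 1 to 100 bp stood apart, with a member in 31.0%, although an MHS overlapped 87.0% of them, since most of the MHSs over so short a gap had their midpoint in a gene. MHSs covered 90.2% of the bases in gaps of 101 to 200 bp and 36.2% in gaps of 1001 to 1500 bp (replicate 1), so a long gap was more often occupied but less fully open.

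**Figure D1:**
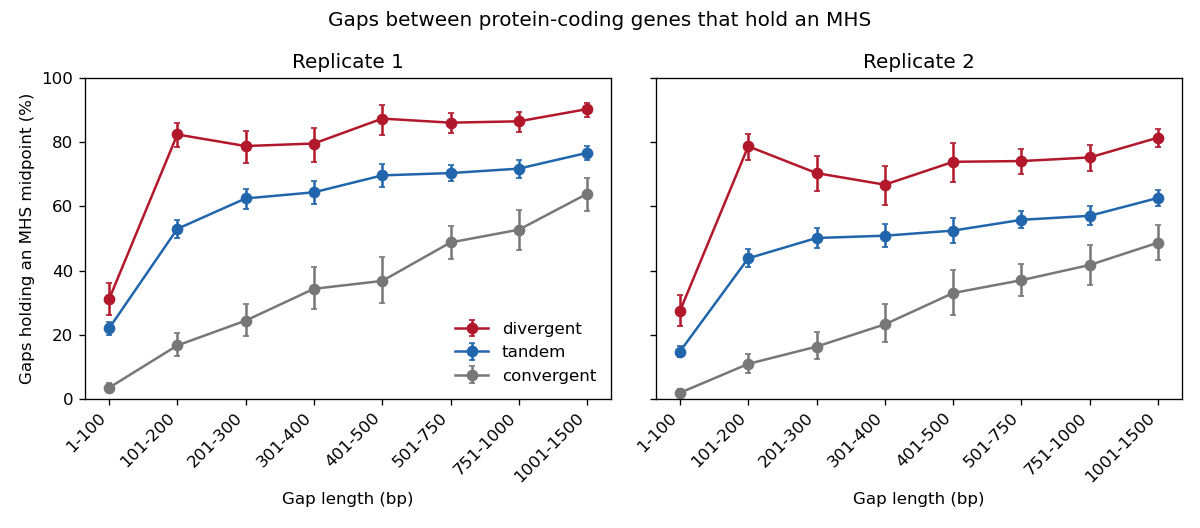
Share of gaps between protein-coding genes that held an MHS midpoint (y axis, percent) by gap length (x axis, bp), for divergent, tandem and convergent gaps, with 1 panel for each replicate. Points are shares and bars exact 95% binomial intervals. Divergent gaps lie highest in every class, with 82.5% and 78.8% already at 101 to 200 bp.

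The number of members grew with the gap. In replicate 1, 1503 gaps held 1 member, 641 held 2, 279 held 3 and 150 held 4 or more, up to 7. Among occupied gaps, 2 or more members were found in 0.279% of those of 101 to 200 bp, in 29.8% of those of 401 to 500 bp and in 73.1% of those of 1001 to 1500 bp, and replicate 2 gave 0, 21.4% and 57.5%.

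Gaps of 101 to 200 bp were mostly covered from TSS to TSS by 1 member, and in the longest gaps most members reached neither TSS. Of the 434 gaps of 101 to 200 bp a member spanned 72.4% in replicate 1 and 68.0% in replicate 2. The shares were 40.1% and 39.8% at 201 to 300 bp and 18.7% and 12.4% at 301 to 400 bp. Of the 355 gaps of 1 to 100 bp they were 29.3% and 25.9%, since an MHS with its midpoint in a gene was not a member. Seen per member, 93.6% in gaps of 1 to 100 bp, 86.9% at 101 to 200 bp, 48.3% at 201 to 300 bp and 19.1% at 301 to 400 bp extended past both TSSs in replicate 1, and 94.8%, 85.7%, 53.9% and 17.0% in replicate 2. In the shortest gaps the rule nearly fixes this value, since an MHS of usual length with its midpoint in such a gap passes both ends. At 1001 to 1500 bp no member passed both TSSs, and 62.0% of 1576 passed neither in replicate 1 and 59.2% of 1122 in replicate 2. Over all members, 618 (14.5%) reached past both TSSs, 1804 (42.2%) past 1 and 1848 (43.3%) past neither. Where an MHS passed a TSS it went on for a median of 82 bp into the gene in replicate 1 and 83 bp in replicate 2, and this median lay between 75 and 95 bp in all 8 length classes of replicate 1.

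The midpoint of a member lay a median of 103 bp from the nearer TSS (quartiles 48 and 244 bp), and 2944 members (68.9%) were within 200 bp of it. In replicate 2 the median was 90 bp. The gap length limits this distance, and by class the median was 46 bp at 101 to 200 bp, 92 bp at 401 to 500 bp and 206 bp at 1001 to 1500 bp. In this longest class 48.9% of members lay within 200 bp of a TSS and 24.4% in the middle one of 3 equal parts of the gap. Gaps with a single member, which were 180 of the 670 occupied gaps of the longest class in replicate 1, differed in form. With the gap cut into 10 bins of equal width, bins 5 and 6 held 14.8% and 16.1% of midpoints at up to 200 bp and bins 1 and 10 held 5.996% and 4.93%. At 1001 to 1500 bp, bins 1 and 10 held 29.4% and 26.7% and the central ones 1.11% and 3.89%. Replicate 2 showed the same shape, with 25.3% and 24.9% in the outermost bins of the longest gaps.

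**Figure D2:**
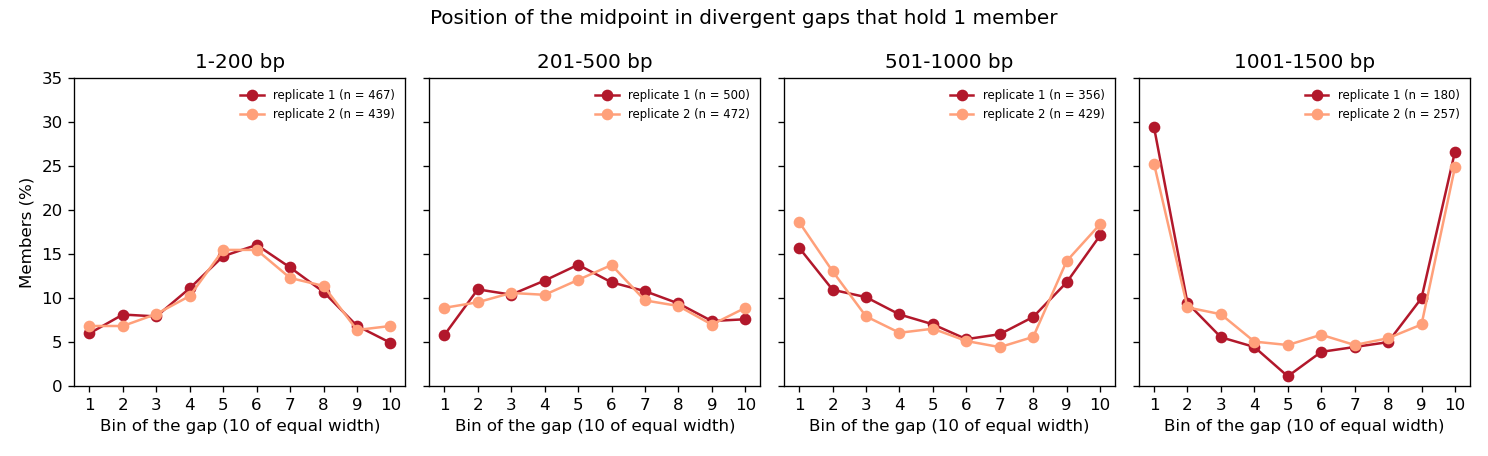
Position of the MHS midpoint in divergent gaps that held 1 member. The x axis is the bin of the gap, 10 of equal width, counted from the TSS of the left gene to that of the right gene and the y axis the share of members in percent, with 1 panel for each class of gap length. Dark points are replicate 1 and light points replicate 2. Midpoints are most frequent in bins 5 and 6 up to 200 bp and in bins 1 and 10 above 1000 bp.

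In gaps with exactly 2 members, these often lay on opposite sides of the centre, less often so in longer gaps. Of the 641 such gaps of replicate 1 this held for 511 (79.7%), and of the 506 in replicate 2 for 401 (79.2%). The share was 96.9% at up to 500 bp, where a short gap leaves little room for another arrangement, 84.9% at 501 to 750 bp, 79.9% at 751 to 1000 bp and 68.6% at 1001 to 1500 bp in replicate 1, and 97.9%, 85.7%, 82.0% and 70.2% in replicate 2. The distance from the left midpoint to the left TSS and from the right midpoint to the right TSS had a median of 54.5 bp at up to 500 bp and of 177 bp at 1001 to 1500 bp in replicate 1, and of 55.5 and 167 bp in replicate 2. The members were unequal, with a median of 306 bp for the longer and 119 bp for the shorter in replicate 1, and 299 and 148.5 bp in replicate 2.

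Members were longer than other MHSs. Their median length was 237 bp (quartiles 112 and 338 bp) in replicate 1, against 146 bp over all MHSs, 186 bp in tandem and 124.5 bp in convergent gaps. In replicate 2 it was 252 bp against 187 bp over all MHSs. Members of at most 100 bp were 22.3% of members, and MHSs of that length 36.4% of all, in replicate 1, and the shares in replicate 2 were 7.77% and 13.4%. Members were longest in gaps of 201 to 300 bp, with a median of 320.5 bp in replicate 1 and 355.5 bp in replicate 2, and shorter in wider gaps, with 195.5 and 212 bp at 1001 to 1500 bp.

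Replicate 2, which the rule did not use, held an overlapping MHS for 3217 of the 4270 members (75.3%, 74.0 to 76.6). This share was 61.9% over all MHSs of replicate 1, 61.0% over MHSs that were no members and 68.6% in tandem gaps. In the other direction, 2982 of the 3190 members of replicate 2 overlapped replicate 1 (93.5%, 92.6 to 94.3), against 86.9% of all its MHSs. Length moved with the overlap. Of members of at most 75 bp, 21.3% overlapped replicate 2, as did 19.3% of all MHSs of that length, and at 101 to 150 bp the shares were 50.5% and 52.7%. At 201 to 300 bp they were 94.7% (93.2 to 96.0) and 91.7%, and all 143 members over 600 bp overlapped replicate 2. Members in gaps of 101 to 200 bp overlapped replicate 2 in 97.5% of cases and those in gaps of 1001 to 1500 bp in 68.1%.

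**Figure D3:**
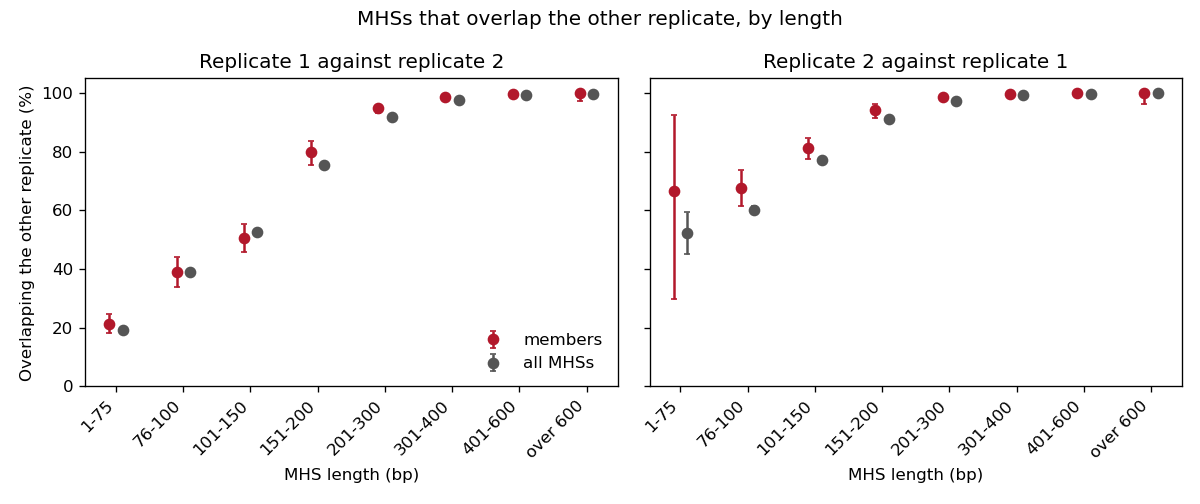
Share of MHSs that shared at least 1 bp with an MHS of the other replicate (y axis, percent) by MHS length (x axis, bp), for members and for all MHSs, with 1 panel for each direction. Bars are exact 95% binomial intervals. In replicate 1 the share of members climbs from 21.3% at up to 75 bp to 94.7% at 201 to 300 bp, close to all MHSs of the same length.

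The borders of members were placed alike in the libraries. For the 2309 members that paired 1 to 1 with an MHS of replicate 2, the midpoint differed by a median of 21 bp, 81.6% differed by at most 50 bp, and the shared bases made up a median of 79.4% of the stretch covered by either. Over the 28603 such pairs among all MHSs the values were 25 bp, 77.5% and 71.3%. The paired members were also longer, with medians of 283 bp in replicate 1 and 263 bp in replicate 2, against 247 and 212 bp. The part of length in these differences was not tested. Of the 1053 members with no overlap, 688 were at most 100 bp long and 756 shared their gap with another member that did overlap replicate 2. The sole member of a gap was concerned in 146 cases, and 190 lay in a gap that no MHS of replicate 2 touched.

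Base composition moved with the overlap in replicate 1, but not in replicate 2. MNase is known to cut more readily at A/T pairs, so the A/T content is given beside these results, and its part in them was not tested. Members had a mean A/T content of 68.3% ± 6.67 (SD over 4270 members) in replicate 1, against 69.3% ± 6.97 over all MHSs, and 64.4% ± 4.29 (3190 members) in replicate 2. The 3217 members that overlapped replicate 2 had 66.1% ± 4.90 and the 1053 that did not had 75% ± 6.93. In replicate 1 the difference was present at equal length, since members of at most 100 bp had 68.3% where they overlapped and 75.4% where they did not. Replicate 2 did not show it, with 64.4% in its 2982 members that overlapped replicate 1 and 64.4% in the 208 that did not. Its members of at most 100 bp had the reverse order, with 68.2% where they overlapped and 64.8% where they did not. The bases of the same gaps outside MHSs of either replicate had 71.2% ± 5.42 (1686 gaps). By gap length the mean of replicate 1 went from 62.7% at 101 to 200 bp to 69.6% at 1001 to 1500 bp.

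Site II elements were concentrated in the promoter DNA that was open in both replicates. The divergent gaps held 3363 site II matches, TGGGCC or TGGGCT on either strand. Of these, 3088 (91.8%) lay in bases that MHSs of both replicates covered, which were 32.6% of the gap bases. The density was 4.80 per kb in bases covered in both replicates, 0.252 per kb in those covered in 1 and 0.191 per kb in those covered in neither, a ratio of 25.1 between the first and the last. It was 16.5 with replicate 1 alone and 22.4 with replicate 2 alone, 49.5 for TGGGCC and 15.3 for TGGGCT. The difference was present near the TSS and far from it. Within 100 bp of the nearer TSS the densities in both and in neither were 6.23 and 0.245 per kb, and at 201 bp or more they were 2.99 and 0.163 per kb. The A/T content of these bases moved with it, at 65.5% in bases covered in both replicates, 72.9% in 1 and 70.8% in neither, and its part in the result was not tested.

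The G-box had the next widest range, with 0.660 per kb in bases covered in both replicates and 0.0786 per kb in neither, a ratio of 8.40. For CCAAT, the letters bound by NF-Y factors, the ratio was 1.69, and for the W-box core TTGAC of WRKY factors it was 1.33. It was 1.10 for the telo-box, 0.902 for the evening element, 0.915 for GAGAGA and 0.802 for the TATA box, so the telo-box was slightly less dense in bases covered in neither replicate than in those covered in both, and the others were slightly denser there. Within 100 bp of the nearer TSS the order was reversed for the telo-box, with 0.246 per kb in both and 0.378 per kb in neither. It was also reversed there for the evening element, with 0.210 and 0.116 per kb, and kept for the other motifs. Over the whole gap the TATA box had 2.49 per kb in bases covered in both and 3.105 per kb in neither. The A/T-only TATA box was densest, at 4.13 per kb, in bases that MHSs of 1 replicate covered.

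Seen per gap, site II went with occupancy at every gap length compared. Of the 1484 gaps with a site II match, 91.8% held a member in replicate 1 and 87.7% in replicate 2, and of the 1748 gaps without one, 69.3% and 56.1%. In gaps of 201 to 300 bp the shares were 92.9% with and 67.5% without a match in replicate 1, and 92.9% and 52.2% in replicate 2. In gaps of 1001 to 1500 bp they were 94.95% and 84.6% in replicate 1, and 90.4% and 70.2% in replicate 2. Among gaps of 101 to 200 bp, the 272 that a member spanned from TSS to TSS in both replicates held site II in 55.5% of cases and the 97 spanned in neither in 22.7%, with a mean A/T content of 63.6% and 65.2%. The telo-box did not follow this order, with 3.31% and 4.12%. Nor did it at 201 to 300 bp, with 5.62% and 8.90%, or at 301 to 400 bp, with 4.35% of 23 and 12.2% of 189 gaps. In gaps of 1 to 100 bp it did, with 8.45% of 71 and 1.30% of 230 gaps. There the median gap was 81 bp for the spanned and 42 bp for the others, so the spanned gaps had more room for a match.

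Windows of 300 bp around the midpoint gave the same picture beside other regions of that length. Around the longest member of each gap (replicate 1, 2573 windows), 45.8% (43.8 to 47.7) held a site II element, against 21.7% of the windows from 250 bp before to 50 bp after the TSS of all protein-coding genes, 30.2% around the longest MHS of tandem gaps and 19.1% around all MHSs. In replicate 2 the share was 50.9%. Around all members, not only the longest, it was 33.7% in replicate 1 and 42.1% in replicate 2. The corresponding values were 24.3% and 30.9% in tandem gaps, and 19.1% and 24.5% around all MHSs. The promoter windows are set on 1 TSS each, whether open or not. In a short gap a member's window can take in the promoters of both genes, and the part of this in the difference was not tested. By gap length the share around the longest member in replicate 1 was 57.0% at 101 to 200 bp and 41.9% at 501 to 1500 bp. Around the centre of the 177 gaps of at least 200 bp that no MHS touched it was 5.08% (2.35 to 9.43), against 25.1% around the centre of occupied gaps of that length. Members longer than 400 bp held site II in 49.6% of windows (45.7 to 53.4) against 34.7% (31.7 to 37.9) in tandem gaps at the same MHS length, whereas members of at most 100 bp did so in 8.49% against 8.15%. Where the longest member overlapped no MHS of replicate 2 (258 gaps), 6.20% of windows held site II and 62.8% a TATA box, against 50.2% and 46.7% of the 2315 windows where it did overlap. These windows were not matched for MHS length. Among all members of replicate 1 the median length was 79 bp without and 280 bp with an overlap. The telo-box was found in 10.1% of the windows around the longest members and in 6.22% of all promoters, but these windows reach into the genes.

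The matches were centred on the MHS. Site II density was 7.56 and 7.01 per kb in the 25 bp on either side of the midpoint of the longest member in replicate 1, and 0.389 per kb about 500 bp before it. In replicate 2 the corresponding values were 7.82, 8.69 and 0.386 per kb. The telo-box had the opposite form, with 0.187 and 0.171 per kb beside the midpoint. The TATA box letters differed less along the window, with 2.95 and 3.08 per kb beside the midpoint and 1.55 per kb at the edge. Placed where a TATA box functions, 15 to 60 bases before the TSS on the strand of the gene, these letters were found for 10.3% of genes at gaps with a member, 9.30% at gaps with no MHS and 10.5% of all protein-coding genes, and for both genes in 26 of 2541 gaps with a member.

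**Figure D4:**
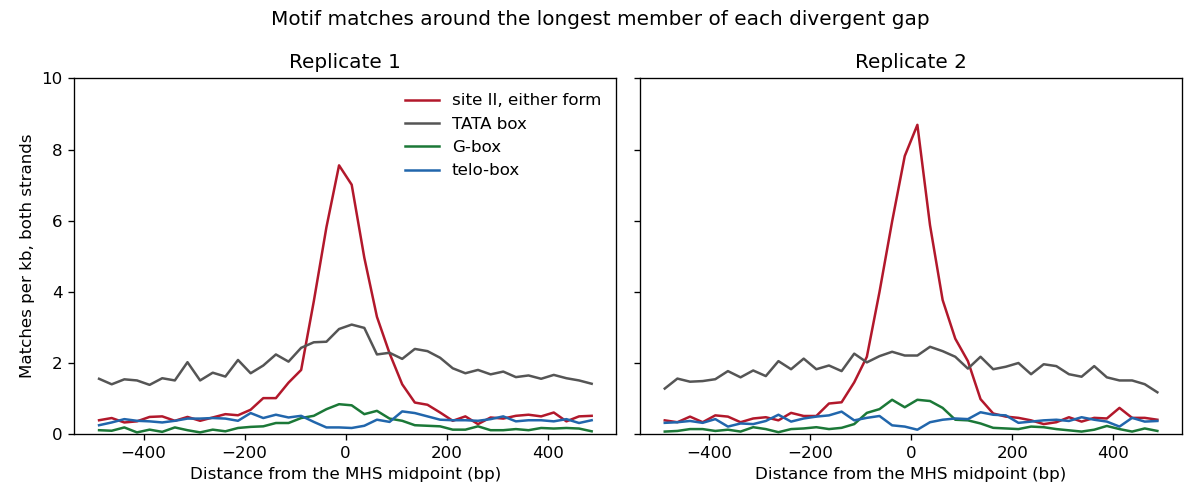
Density of motif matches on both strands (y axis, matches per kb in steps of 25 bp) by distance from the midpoint of the longest member of each divergent gap (x axis, bp), with 1 panel for each replicate. Lines are site II in either form, the TATA box, the G-box and the telo-box. Site II peaks at the midpoint, at 7.56 per kb in replicate 1 and 8.69 per kb in replicate 2.

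All 3 divergent gaps beside genes of the circadian clock list held members in both replicates, and all 6 members of replicate 1 overlapped replicate 2. Over all gaps, 2193 of 3232 held members in both replicates, and 75.3% of all members of replicate 1 overlapped replicate 2. The clock members were long, with a median of 421.5 bp, and long MHSs overlapped replicate 2 in nearly all cases. Between AT3G46630 and PCL1, 481 bp apart, replicate 1 had MHSs of 253 and 399 bp where replicate 2 had 1 of 625 bp. Between PRR7 and RHL2, a subunit of DNA topoisomerase VI, 523 bp apart, it had MHSs of 444 and 156 bp where replicate 2 had 1 of 691 bp. These joined MHSs covered 253 and 352 bp of the former pair and 419 and 156 bp of the latter. The 1305-bp gap between AT5G61370 and TOC1 had 2 separate members in each replicate, at the TOC1 end 589 bp long in replicate 1 and 503 bp in replicate 2, with midpoints 127 and 115 bp from the TOC1 TSS. At its other end, members of 512 and 529 bp had midpoints 216 bp from the TSS of AT5G61370, which encodes a pentatricopeptide repeat protein, in both replicates.

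**Figure D5:**
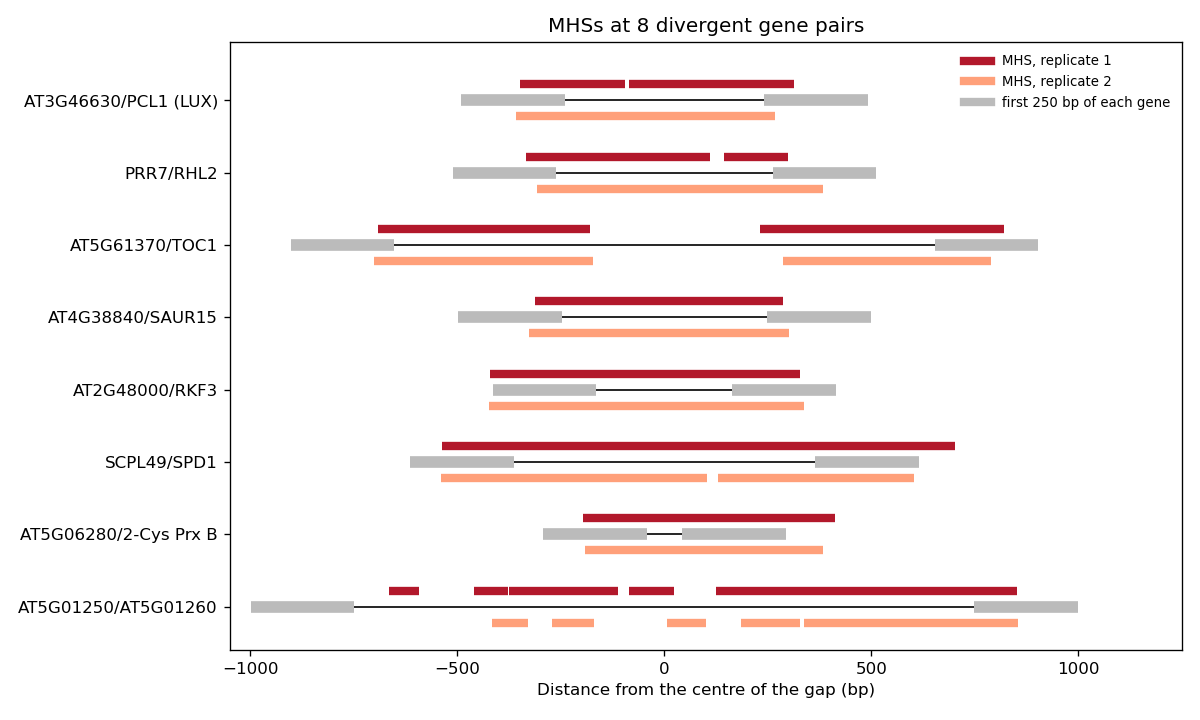
MHSs at selected divergent gene pairs, by distance from the centre of the gap (x axis, bp). Black lines are gaps, grey bars the first 250 bp of each gene, dark bars MHSs of replicate 1 above and light bars MHSs of replicate 2 below. Members at PCL1 and PRR7 are split in replicate 1 and joined in replicate 2, and the gap at TOC1 is open at both ends in both.

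The 5 longest members of replicate 1 measured 1012 to 1245 bp, and all were overlapped by several shorter MHSs in replicate 2. The longest, 1245 bp between AT5G06970 and AT5G06980, shared 1070 bp with MHSs of 222 and 992 bp. That of 1237 bp between SCPL49, a serine carboxypeptidase-like protein, and SPD1 shared 1110 bp with MHSs of 642 and 472 bp, and covered the whole 728-bp gap. The next, 1213 bp between CIPK21, a kinase that acts with calcineurin B-like calcium sensors, and AT5G57640, shared 884 bp with replicate 2. The remaining pair lay upstream of aquaporin genes, 1154 bp in the gap of PIP1A and 1012 bp in that of PIP1;5, and shared 942 and 521 bp.

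Genes for ribosomal proteins and histones lay in divergent gaps in a larger share than genes for transcription factors, but the share of these gaps that held a member was near that of all gaps in each of these groups. Groups were taken from words in the annotated product names, so they can hold genes of another function. The longest member in the group of DNA replication, repair and cell cycle lay between RRF, a ribosome recycling factor, and PLP9, a patatin-like protein. Of all protein-coding genes, 23.6% lay in a divergent gap, with 79.6% of gaps occupied in replicate 1. Of 344 ribosomal protein genes 35.2% lay in such a gap, with a median gap of 199 bp, as did 41.5% of 53 histone genes, 37.5% of 64 genes for aminoacyl-tRNA synthetases, 32.6% of 564 for pentatricopeptide and tetratricopeptide repeat proteins and 33.3% of 60 for light harvesting and photosystem proteins. Of 803 transcription factor genes 10.6% did, with a median gap of 801 bp, and of 248 cytochrome P450 genes 10.9%.

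Occupancy in replicate 1 was 82.6% of 121 gaps for ribosomal proteins, 84.2% of 19 for light harvesting and photosystem, 85.7% of 77 for heat shock proteins and chaperones, 84.0% of 106 for ubiquitin and proteasome, 82.3% of 181 for the repeat proteins, 85.4% of 41 for DNA replication, repair and cell cycle, 72.7% of 22 for histones, 70.8% of 24 for aminoacyl-tRNA synthetases, 77.6% of 85 for transcription factors and 81.5% of 27 for cytochrome P450. The interval of each of these shares held the value of all gaps. The lowest values were 57.1% (34.0 to 78.2) of 21 gaps for immune receptors of the NBS-LRR class, whose interval lay below the value of all gaps, and 55.6% (21.2 to 86.3) of 9 for SAUR proteins. Of the 41 gaps beside receptor kinase genes 70.7% were occupied (54.5 to 83.9) and 10 were touched by no MHS in either replicate, as were 6 of the 21 for NBS-LRR genes and 234 of all 3232.

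The longest member of several groups was found in both replicates with little change. Between AT2G48000, a pentatricopeptide repeat gene, and the receptor-like kinase gene RKF3, a member of 748 bp lay wholly within one of 760 bp in replicate 2. Between the auxin-responsive genes AT4G38840 and SAUR15, members of 598 and 627 bp spanned the 497-bp gap. Between DSI-1VOC and AT1G07660, a histone gene, they measured 613 and 582 bp and shared 573 bp. In other pairs replicate 2 had split the region. Between AT5G56670, for ribosomal protein S30, and SYNC1, an aminoacyl-tRNA synthetase, a member of 624 bp faced MHSs of 286 and 257 bp, each at 1 TSS. Between AT5G20890, for a chaperonin, and JAZ12, a repressor of jasmonate signalling, a member of 720 bp faced MHSs of 222 and 417 bp. At RRF, a chloroplast ribosome recycling factor, and PLP9 a member of 671 bp faced MHSs of 385 and 289 bp.

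Further pairs named by the longest member of their group were HBI1, a bHLH factor that promotes growth, with AT2G18320 (968 bp), AT1G03590 with PSB27, an assembly factor of photosystem II (670 bp), AT3G17800 with PYD1 (643 bp), PPT2, a phosphate translocator, with AT3G01560 (792 bp), AT4G27700 with CYP709B3 (793 bp) and AT5G66910 with sks17 (780 bp). Each overlapped replicate 2, by 335 bp at PSB27 and by 755 bp at HBI1. Of 2 gene pairs known for a shared promoter, AT4G35985 and AT4G35987 had a member of 301 bp in replicate 1 and of 272 bp in replicate 2, both next to the TSS of AT4G35987. The 86-bp gap between AT5G06280 and the gene of 2-Cys peroxiredoxin B held no member in either, yet MHSs of 608 and 573 bp covered it whole, with their midpoints inside the peroxiredoxin gene.

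The shortest gaps with a member that overlapped replicate 2 measured 6, 9 and 18 bp, between AT3G07470 and AT3G07480, AT3G56020, for ribosomal protein L41, and AT3G56030, and AT3G05060, for a NOP56-like protein of ribosomal RNA processing, and AT3G05070. MHSs of 595, 257 and 314 bp in replicate 1, and of 601, 315 and 345 bp in replicate 2, reached into both genes. In replicate 2 the midpoints lay just inside a gene, so that none of these counted as a member there.

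At the limit of the rule, the gap of 1497 bp between AT5G01250 and AT5G01260 held 5 members in each replicate, of 73 to 727 bp in replicate 1, and the gap of 1501 bp between AT1G16850 and AT1G16860, just outside, held 4 MHSs of 74 to 377 bp in replicate 1 and 3 in replicate 2. No MHS of either replicate touched 234 gaps. The longest of these were 1491 bp between ACLA-2, a subunit of ATP-citrate lyase, and RALFL7, a RALF-like peptide, 1480 bp between AT5G50640 and AT5G50650, and 1471 bp between AT2G06090 and AT2G06095. Their A/T content was 70.8%, 69.9% and 74.7%. Over the empty gaps of at least 50 bp the mean was 67.9% ± 5.61 (217 gaps), near the 68.3% of members in replicate 1 and below the 71.2% of the bases outside MHSs in occupied gaps.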

How the data were processed

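The authors trimmed, aligned and filtered the reads of each library and called MHSs per library with their software Jazz. Per the labels, cutadapt, Bowtie2 and deepTools were used on TAIR10, and their versions and the cut-off of the calls are not given in the sources used here. The deposited lists give positions, with no score. Gene positions were those of RefSeq for TAIR10.1 (37899 genes and pseudogenes, 27444 protein-coding), so distances depend on its gene starts. The last MHSs lay within its chromosomes, and 19 of 19 synthesised sequences of the study equalled it at the position of an MHS. Neighbours were adjacent protein-coding genes, and 242 gaps held another annotated gene. Overlap needed 1 bp. Motifs were counted on both strands. Functions were tested on simulated data. Python 3.11.15, numpy 2.4.6, scipy 1.17.1 and matplotlib 3.10.9 were used, and bedtools 2.31.1 gave the same 43362 and 43401 overlapping MHSs.

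Members, gene groups and motifs were chosen with earlier results of these data known. Named pairs flank the 5 longest members, the longest member of each gene group, clock genes and known shared promoters, the gaps next to the 1500-bp limit, the 3 longest gaps without an MHS and the 3 shortest with a member overlapping replicate 2. Other pairs were chosen after their values were seen. Alternatives changed the replicate, assignment to a gap, maximum distance, neighbours, minimum length, merging, overlap, gene start and window.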

Additional observations from a re-analysis of the deposited data

How the results depend on the processing

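Of 34 alternative values for 7 results, 17 moved by less than the spread between replicates (counts: by at most 1.5 times) and 17 by more. For the shares, medians and mean, this spread was the SD of the values from replicate 1 and from replicate 2. The swap to replicate 2 exceeds that SD by construction, so its count as moved carries no information. For the overlap, the values behind the SD are the 2 directions of the same comparison. With replicate 2 as the source, 70.6% of gaps held a member, 93.5% of members overlapped the other replicate, the median length was 252 bp, the median distance to the nearer TSS 90 bp and the A/T content 64.4%. A limit of 1000 bp left 2694 members, since it takes in fewer gaps, with a median length of 251 bp and a distance of 79 bp. Any overlap with the gap in place of the midpoint gave 91.8% of gaps. A reciprocal overlap of 50% gave 58.6% of members, against 42.0% of all MHSs. Merging MHSs at most 50 bp apart gave a median length of 283 bp, and members overlapping replicate 2 had 280 bp. Leaving out MHSs under 100 bp gave a distance of 82 bp, and the start of the coding sequence in place of the TSS gave 307.5 bp.

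Alternatives for site II were chosen after seeing the data. The ratio of its density in bases covered in both replicates to that in bases covered in neither was 16.5 to 22.4 with 1 replicate left out, 49.5 for TGGGCC alone and 15.3 for TGGGCT alone. No paired analysis was possible because there is 1 group. Reads were not analysed here, so whether an MHS missing from replicate 2 reflects depth could not be told from these lists. The paper describes its second dataset as having more reads, but a larger chloroplast share and more background than the first. The replicates therefore differ in quality as well as in their lists. The paper also counts fewer peaks in that dataset than the MHSs listed for replicate 2 here. Shares by midpoint are low for gaps of at most 100 bp, where an MHS is often wider than the gap.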

Other observations

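Occupancy also moved with how fully the annotation describes the starts of the genes, a split chosen after seeing the data. Of the 2514 gaps in which both genes have an annotated 5′ UTR, 83.0% held a member in replicate 1 and 74.6% in replicate 2. With a 5′ UTR on 1 gene the shares were 73.9% and 62.1% of 617 gaps, and with none they were 30.7% and 23.8% of 101 gaps. The order was the same among gaps of 751 to 1500 bp, with 93.9% of 898, 81.1% of 270 and 34.9% of 43 gaps in replicate 1.

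The chromosomes differed little in this respect. Members were present in 76.7% to 82.6% of divergent gaps in replicate 1 and in 65.8% to 73.4% in replicate 2.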
